A study of Mus musculus with 24 samples.

Results

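The cytoplasmic actins and the beta tubulins were represented by every probe that the platform annotation gave exactly 1 gene symbol, where that symbol was Actb or Actg1 or began with Tubb. This rule took 26 of the 9684 probes with 1 symbol, and 8 of the 6970 genes they name. Of these probes 22 stood in the first of the 2 tables, 10 for Actb, 4 for Tubb5, 3 for Tubb4b and 1 each for Actg1, Tubb2a-ps2, Tubb2b, Tubb3 and Tubb6. The other 4 stood in the second, 3 for Tubb5 and 1 for Actg1. No probe with several symbols named any of these genes, and no filter on low values was applied, so all 26 entered every fit.

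Mouse embryos were kept in culture at 37 °C and either exposed for 1 h to 40 µM 4-hydroperoxycyclophosphamide (4CP), a form of the alkylating drug cyclophosphamide that does not need activation by the liver, or left untreated. RNA of both groups shared each of 24 two-channel array records, 12 with the treated RNA in channel 1 and 12 with it in channel 2. These make up 12 slides of 2 records and 6 slide pairs with swapped channels, 3 per table, and n = 3 below refers to these pairs. The labels give neither the strain, the stage nor the number of embryos per RNA sample, and do not say whether a pair is a separate culture, so p-values measure only the spread between pairs, which may be technical.

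Beta-actin (Actb) and gamma-actin (Actg1) are the actins of nearly all non-muscle cells. They polymerise into the filaments of the cell cortex, and the monomer pool feeds back on their own transcription through the serum response factor. Beta tubulins pair with alpha tubulins to form the dimers of microtubules, and free dimers trigger the decay of tubulin mRNA while it is being translated. Both are folded by the TCP1 ring chaperonin, and both are common reference genes.

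Each value is a log ratio of the 2 channels with the record's median subtracted, in log units of a base (2 or e) that the sources used here do not give. A treatment effect is the slide with treated RNA in channel 1 minus its swapped partner, divided by 2. With channel 1 as the numerator, a positive effect stands for more RNA after 4CP, and with channel 2 for less; which of them holds is unknown. If the authors turned the swapped slides themselves, the sum divided by 2, called the component without the turn, would be the treatment effect instead. Signs are relative to the median probe of each record. With values as deposited, the median probe of the first table stood at -0.128.

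In the gene models of GRCm38.p6, Actb lies at chr5:142903115-142907976, Actg1 at chr11:120345687-120348495, Tubb5 at chr17:35833920-35838301 and Tubb4b at chr2:25222158-25224702. Tubb3 lies at chr8:123411553-123422015 and Tubb2b at chr13:34127008-34130354. Tubb2a-ps2, at chr12:11882196-11882899, is annotated as a transcribed pseudogene. Which part of a transcript a probe covers, and how far a probe of 1 family member also binds RNA of another, was not determined here, so values of such similar genes are uncertain.

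The RefSeq promoter table held 4 of the 8 genes, Actg1, Tubb3, Tubb4b and Tubb5. The 250 bases before the start of Actg1 and of Tubb5 are given to show how differently an actin and a tubulin of this group are built upstream. Capitals mark matches, on either strand, to the CArG box (the site of the serum response factor) and to CCAAT.
Actg1, chr11:120348496-120348745, minus strand: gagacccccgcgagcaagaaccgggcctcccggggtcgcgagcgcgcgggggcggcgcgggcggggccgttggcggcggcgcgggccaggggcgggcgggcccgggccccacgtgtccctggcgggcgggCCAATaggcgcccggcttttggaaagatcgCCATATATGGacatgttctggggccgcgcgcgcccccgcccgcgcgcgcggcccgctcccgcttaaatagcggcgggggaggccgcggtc
Tubb5, chr17:35838302-35838551, minus strand: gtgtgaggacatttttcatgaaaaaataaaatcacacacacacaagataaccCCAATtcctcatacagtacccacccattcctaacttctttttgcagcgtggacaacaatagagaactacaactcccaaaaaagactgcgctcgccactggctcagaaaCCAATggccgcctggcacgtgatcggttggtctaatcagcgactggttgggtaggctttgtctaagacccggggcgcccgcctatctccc
Actg1 has a CArG box, CCATATATGG, that begins 90 bases before the start, and CCAAT at 120 bases. A CArG box is present in 1.47% of the 32851 windows of this length, and CCATATATGG itself in 0.070%. Tubb5 has CCAAT at 198 and at 90 bases and no CArG box. CCAAT on either strand is present in 33.9% of the windows, and Tubb4b holds 5 matches. The 2 motifs share no bases in these windows. These matches describe the letters only and are not sites shown to be bound.

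No probe of these genes passed the test of the treatment effect. With limma and Benjamini-Hochberg adjustment over all probes of a table, 0 of 22 in the first table (lowest adjusted p = 0.997) and 0 of 4 in the second (lowest adjusted p = 0.945) passed 0.05, against 0% of all 7680 probes in each. At an unadjusted p under 0.05 limma called 0 of the 22, where all probes of the table gave 2.34%, and 1 of the 4, where all probes gave 5.22%. The values below are therefore measurements and not shown changes. By sign, 18 of the 22 had a positive mean, where 46.2% of all probes did, and 9 were positive in all 3 pairs, where 11.4% were. All 9 were beta tubulin probes. The 22 probes stand for 8 genes, so they are not independent observations. By gene, Tubb2a-ps2, Tubb3, Tubb4b, Tubb5 and Tubb6 were positive in all 3 pairs, as were 514 of all 3838 genes. A positive mean was found for 1956 of the 3838. Of the second-table probes 1 of 4 had a positive mean (48.4% of all probes), and none was positive in all 3 pairs (9.84%). With values as deposited, the means of all 8 first-table genes were negative.

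Actb gave the most probes, and they moved together within a slide pair but not from pair to pair. In pair 1 all 10 probes had positive effects, from 0.0311 to 0.171, with a mean of 0.107. In pair 2, 8 of 10 were positive, from -0.0629 to 0.0921, with a mean of 0.0257. In pair 3 none was positive, with values from -0.202 to -0.0125 and a mean of -0.0802. Every Actb probe thus had opposite signs in pairs 1 and 3. The share of all probes that were positive went from 58.6% in pair 1 over 51.2% to 40.6% in pair 3, so the whole table leaned the same way by less. The gene mean was 0.0175 ± 0.0939 (SD, n = 3), and was -0.0273 without pair 1 and -0.106 with values as deposited.

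The spread between probes of Actb was smaller than the spread between slide pairs. Within a pair the SD across the 10 probes for pairs 1, 2 and 3 was 0.0355, 0.0471 and 0.0537. Across the 3 pairs a single probe had an SD of 0.0676 to 0.147, with a median of 0.0953. Of the total sum of squares of these values, 75.5% lay between pairs, 12.4% between probes and 12.1% in the remainder. Averaging 10 probes therefore left an SD of 0.0939 between pairs, about that of a single probe. Fitted at gene level with limma, Actb had a moderated 95% interval from -0.0948 to 0.130 (adjusted p = 0.995), which covers ratios from 0.936 to 1.09 in base 2 or from 0.910 to 1.14 in base e.

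**Figure D1:**
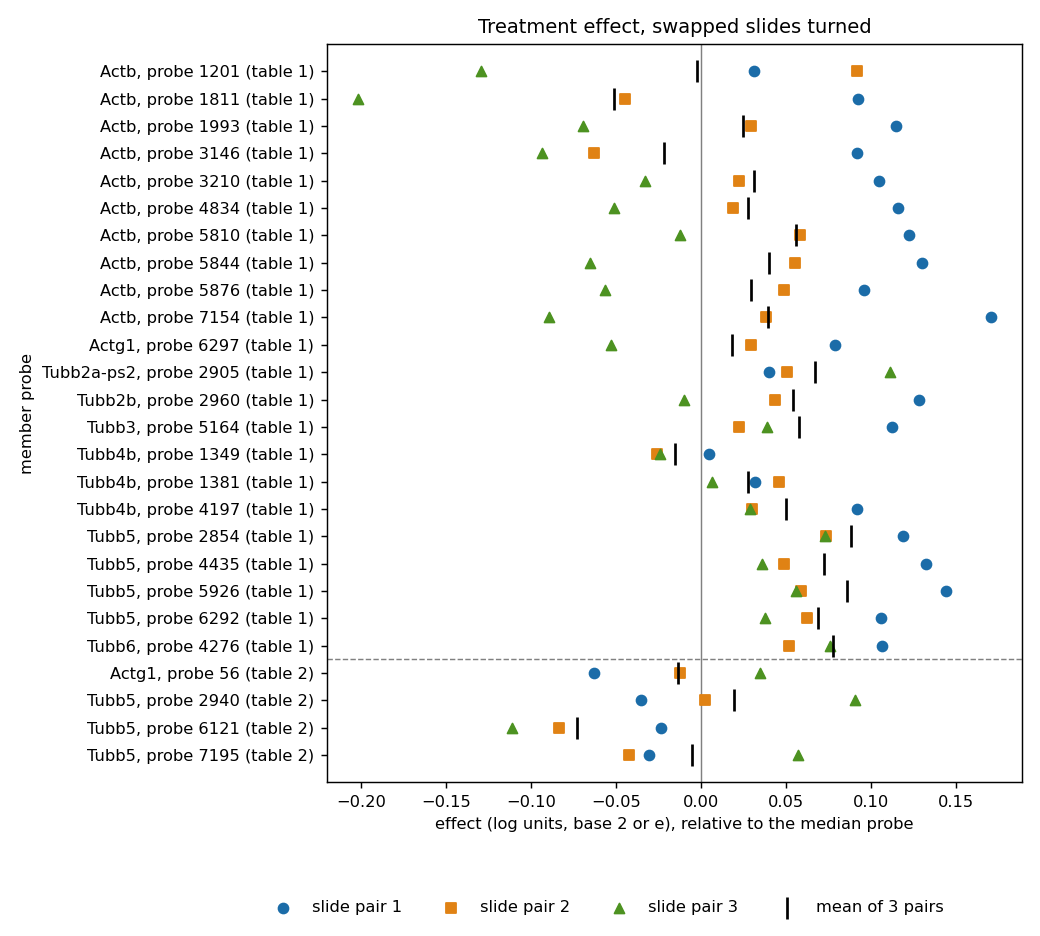
Treatment effect of each member probe in log units (horizontal axis) with swapped slides turned, relative to the median probe; each line is a probe, the symbols are the 3 slide pairs and the black bar is their mean. Actb probes lie to the right in pair 1 and to the left in pair 3, while the 4 Tubb5 probes of the first table are positive in every pair and those of the second table are not; with values as deposited the means of all 8 genes in the first table are negative.

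Among the Actb probes, probe 1811 had the lowest mean effect, -0.0513 ± 0.147 (SD, n = 3), and probe 5810 the highest, 0.0563 ± 0.0676. For probe 5810 the 4 records of pair 1 had -0.597 and -0.545 with treated RNA in channel 1 and -0.984 and -0.649 with it in channel 2. Those of pair 2 had -0.388, -0.0839, -0.403 and -0.304 in the same order, and those of pair 3 had -1.45, -1.32, -1.44 and -1.28. Every record had this probe below the median, and those of pair 3 were lowest in both orientations.

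Probe 3146, which the annotation also assigns to Actb, went against the other 9. In the 4 records of pair 3 it had 0.512, 0.501, 0.664 and 0.724, where each of the other 9 probes was below -0.9 in every record. Over the 12 records its values correlated with those of the other 9 with r from -0.852 to -0.705, while those 9 correlated among themselves with r from 0.870 to 0.998. The records share dyes and slides, so these coefficients describe the whole signal and not the treatment. Its treatment effects, 0.0918, -0.0629 and -0.0937 in pairs 1, 2 and 3, had the signs of the Actb mean in pairs 1 and 3. Leaving this probe aside, a choice made after seeing its values, the Actb mean was 0.0218.

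**Figure D2:**
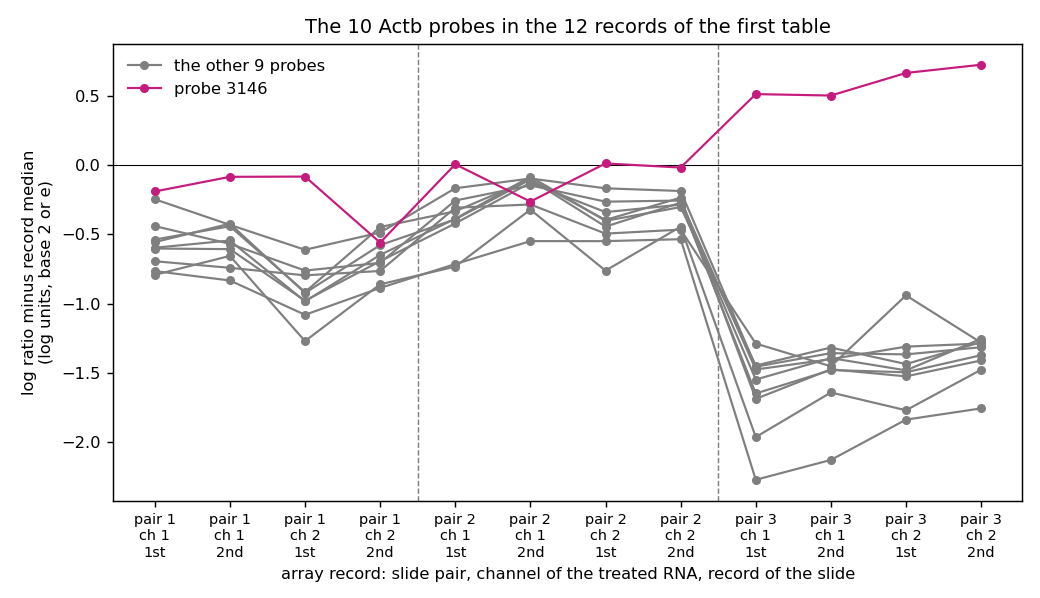
Log ratio minus the record median (vertical axis, log units) of the 10 Actb probes in the 12 records of the first table, ordered by slide pair, channel of the treated RNA and record of the slide; lines only join the values of a probe. The other 9 probes lie lowest in pair 3, where probe 3146 lies between 0.501 and 0.724.

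Actg1, whose protein differs from beta-actin in a few residues at its N terminus, fell from pair 1 to pair 3 in the first table, as Actb did. The medians of all genes fell in the same order by less, with 0.0243, 0.0084 and -0.0101. The Actg1 probe had 0.0790, 0.0294 and -0.0531 in pairs 1, 2 and 3, with a mean of 0.0185 ± 0.0667 (SD, n = 3). That mean was -0.0118 without pair 1 and -0.0190 from the second records alone. The difference Actg1 minus Actb was -0.0280, 0.0038 and 0.0271 in the 3 pairs, with a mean of 0.0010 ± 0.0277 (two-sided exact sign-flip p = 1.00, with 0.25 the smallest that 3 pairs allow). Such a test over 3 pairs cannot show that the 2 genes were alike. Another Actg1 probe, of the second table, had -0.0631, -0.0125 and 0.0347, with a mean of -0.0136 ± 0.0489. Neither table gave Actg1 a sign that held in all 3 pairs.

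Tubb5, the widely expressed beta tubulin, had positive effects on all of its probes in the first table. Its 4 probes ran from 0.106 to 0.144 in pair 1, from 0.0491 to 0.0734 in pair 2 and from 0.0359 to 0.0731 in pair 3. All 4 were positive in all 3 pairs, against the 11.4% of all probes given above. They read RNA of 1 gene on the same slides, with 86.6% of their sum of squares between pairs, and are not 4 independent observations. The SD across probes was 0.0165, 0.0100 and 0.0174 in pairs 1, 2 and 3, below that of Actb and of Tubb4b in each pair, while the SD of the gene mean across pairs was lower for Tubb4b, Tubb6 and Tubb2a-ps2. The gene mean was 0.0790 ± 0.0405 (SD, n = 3), with a moderated 95% interval of -0.0195 to 0.178 and an adjusted p = 0.989 at gene level with limma. The interval takes in 0.

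Tubb5 did not repeat this pattern on the second table, where its 3 probes had means of 0.0193, -0.0727 and -0.0050. Probe 2940 had -0.0351, 0.0025 and 0.0905 in pairs 1, 2 and 3, and probe 7195 had -0.0303, -0.0421 and 0.0574. Probe 6121 was negative in every pair, at -0.0233, -0.0836 and -0.111, which held for 14.7% of all probes of that table. It is the probe with an unadjusted p under 0.05. In pair 3 the 3 probes ran from -0.111 to 0.0905, an SD of 0.108, larger than any spread between pairs that they showed. Over the 3 pairs, 42.8% of the sum of squares lay between probes and 14.8% between pairs. The gene mean was -0.0195 ± 0.0280 (SD, n = 3), with a moderated 95% interval of -0.0846 to 0.0457. The tables were normalized apart and read other probes, and the difference between them was not tested.

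The other beta tubulins of the first table had small positive means. Tubb6 had 0.107, 0.0517 and 0.0759 in pairs 1, 2 and 3, a mean of 0.0781 ± 0.0275 (SD, n = 3). Tubb3, the beta tubulin of neurons, had 0.113, 0.0223 and 0.0389, a mean of 0.0580 ± 0.0482. Both were positive in every pair. Of the 11 neuronal markers listed, none had a probe with 1 symbol in the first table. Only Gap43, at -0.0081, had one in the second, so neuron content could not be set beside Tubb3. In RNA of whole embryos, fewer cells of a type and less RNA per cell cannot be told apart.

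Tubb2b, a tubulin of the developing brain, had 0.129, 0.0436 and -0.0098, a mean of 0.0542 ± 0.0698 (SD, n = 3), and so changed sign in pair 3. The pseudogene Tubb2a-ps2 had 0.0400, 0.0509 and 0.111, and a mean of 0.0674 ± 0.0384. It was the only member gene of the first table with its highest value in pair 3. Tubb4b, a broadly expressed isotype, had means of -0.0151, 0.0280 and 0.0504 on its 3 probes and a gene mean of 0.0211 ± 0.0198, which was -0.0031 with records scaled and -0.0039 under quantile normalization. Here the probes differed more than the pairs, with 62.7% of the sum of squares between probes and 22.2% between pairs, where Actb and the first-table probes of Tubb5 had more between pairs.

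Actin probes and most beta tubulin probes of the first table differed in sign in pair 3. In pair 1 all 22 probes were positive (58.6% of all probes), and in pair 2, 19 of them (51.2%). In pair 3 none of the 11 actin probes was positive and 9 of the 11 beta tubulin probes were (40.6% of all probes). Of the actin probes 10 read Actb, so the probes are not independent observations. By gene, Tubb4b had 0.0038 in pair 3 and Tubb2b had -0.0098. Tubb5 minus Actb was 0.0184, 0.0354 and 0.131 in pairs 1, 2 and 3, a mean of 0.0615 ± 0.0606 (SD, n = 3), higher in 3 of 3 pairs (two-sided exact sign-flip p = 0.25, the smallest that 3 pairs allow). This comparison was chosen with the values known, and does not pass 0.05. Tubb5 minus Actg1 in the second table was 0.0335, -0.0286 and -0.0225.

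The 2 records of a slide gave these effects with different sizes. From the first records alone, pair 1 had a median effect of 0.183 over the 22 probes, and from the second records 0.0360. For Actb the medians were 0.183 and 0.0477, and for Tubb5 0.221 and 0.0433. In pair 2 the order was the other way, with 0.0172 from first and 0.0649 from second records over the 22 probes and 0.0058 and 0.0640 for Actb. In pair 3 the Actb medians were -0.0789 and -0.0628, with 0 of 10 probes positive in either record, and the Tubb5 medians were 0.0489 and 0.0512. The Actb and Tubb5 signs in pair 3 were thus the same from both records, while the larger effect came from the first records in pair 1 and from the second in pair 2.

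Genes that work with actin had values of the same small size. Of 39 listed actin regulators 17 were measured in the first table, 14 positive and 3 negative, where 1956 of all 3838 genes were positive. Their median was 0.0212, and by pair 0.0756, 0.0147 and -0.0397. This order was seen in Actb, but also in all genes and in the tubulin folding and microtubule genes below. The median of all 3838 genes was 0.0012, with 0.0243, 0.0084 and -0.0101 in the pairs. The highest were Tmsb10, a thymosin that binds actin monomers, at 0.0887 ± 0.160 (SD, n = 3), and Actr3, a subunit of the Arp2/3 nucleator, at 0.0662 ± 0.0693. The lowest were Twf1, a twinfilin, at -0.0287 ± 0.0409, and the crosslinker Actn1 at -0.0267 ± 0.0528. On the second table, 4 of 14 were positive (median -0.0126), where 1873 of all 4075 genes were. Of 20 listed genes for the serum response factor and its targets 8 were measured in the first table. The factor itself was not measured in either table. Of the 8 targets 7 were positive (median 0.0606, by pair 0.0520, 0.0724 and 0.0462), where 1956 of all 3838 genes were. Highest were the tropomyosin Tpm2 at 0.181 ± 0.205 and the calponin Cnn1 at 0.103 ± 0.0345. Lowest were the adhesion protein vinculin (Vcl) at -0.0354 ± 0.130 and Cnn2 at 0.0334 ± 0.0955. On the second table, 4 of 5 targets were positive (median 0.0327), where 1873 of all 4075 genes were, and Tpm2 had 0.0154 ± 0.0733 there. No probe of either list passed the test in either table, and values as deposited stood lower by the shift of the median probe.

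The same held on the tubulin side. The first table measured Tuba1b, an alpha tubulin, at 0.109 ± 0.0640 (SD, n = 3), with 0.175, 0.104 and 0.0478 in pairs 1, 2 and 3, and the actin-related genes Actr1a at 0.0547 ± 0.0667 and Actl6a at 0.0484 ± 0.0304. Of 40 listed genes for tubulin folding and microtubule regulation 14 were measured there, 10 of them positive, where 1956 of all 3838 genes were. Their median was 0.0182, and by pair 0.0844, 0.0331 and -0.0266. The chaperonin subunits Cct7, at 0.127 ± 0.0203, and Cct8, at 0.0819 ± 0.0438, were highest. The depolymerising kinesin Kif2c, at -0.0931 ± 0.0627, and Vbp1, a prefoldin subunit, at -0.0484 ± 0.0526, were lowest. On the second table, 8 of 14 were positive (median 0.0029), where 1873 of all 4075 genes were, and Cct7 had 0.0446 ± 0.0879 there. No probe of these lists passed the test.

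Other reference genes of the first table varied in their pair values. Of 11 measured, 8 were positive, where 1956 of all 3838 genes were. Their median was 0.0379, and by pair 0.134, 0.0432 and -0.0139, where Actb had 0.107, 0.0257 and -0.0802 and all genes had 0.0243, 0.0084 and -0.0101. Pgk1, a glycolytic kinase, had 0.280, 0.0430 and -0.0051, a mean of 0.106 ± 0.153 (SD, n = 3), and the ribosomal stalk protein Rplp0 had 0.0926 ± 0.0603. B2m, of MHC class I, had -0.0284 ± 0.0849 and Hprt, of purine salvage, had -0.0187 ± 0.0394. Across the 11 reference genes the SD between pairs ran from 0.0394 for Hprt to 0.153 for Pgk1. Actb, at 0.0939, and Tubb5, at 0.0405, lay within that range. On the second table, 3 of 6 were positive (median 0.0015), where 1873 of all 4075 genes were. None of these probes passed. Of 12 yolk sac markers 4 were measured in the first table, all negative (median -0.0376, by pair -0.0765, 0.0178 and -0.0311), and 1, Apoc2 at 0.0167, in the second. Of 8 primitive erythroid markers the first table measured none and the second 3, all negative (median -0.0537). Of all genes, 1882 of 3838 were negative in the first table and 2202 of 4075 in the second. Heart muscle and trophoblast markers had no probe in either table. Their part in the values of the actins and tubulins was not tested.

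**Figure D3:**
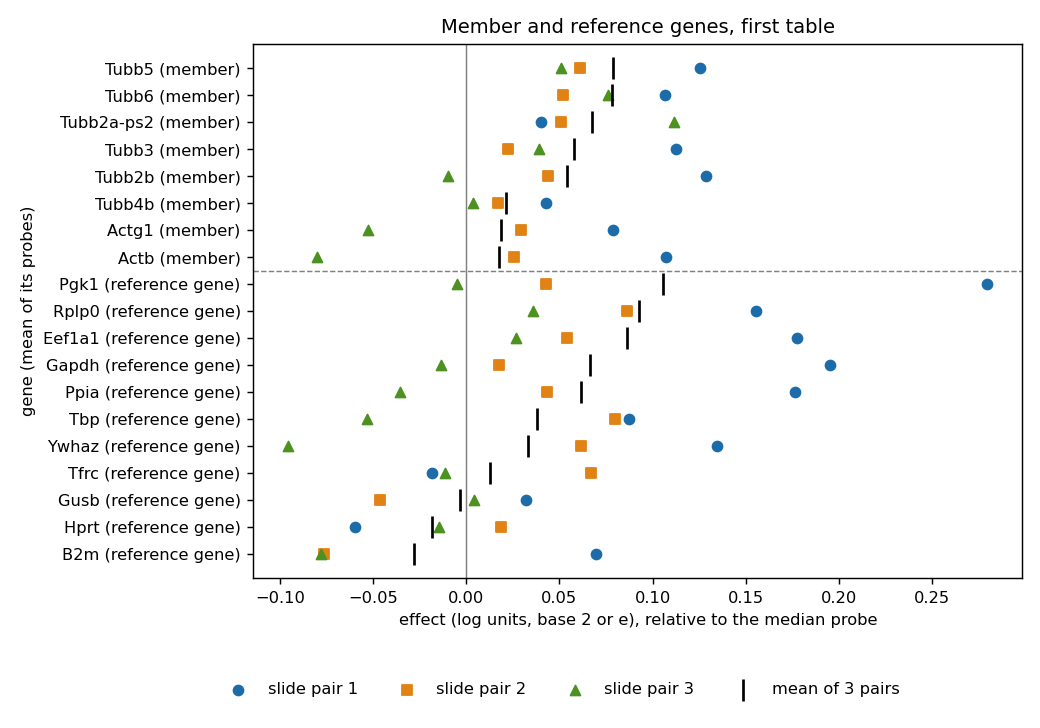
Treatment effect in log units (horizontal axis), relative to the median probe, of the 8 member genes and 11 reference genes of the first table, each the mean of its probes; symbols are slide pairs and the black bar is their mean. Pair 1 is highest for most genes in both sets, and Actb spans -0.0802 to 0.107; with values as deposited the means of all 8 member genes are negative.

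The component without the turn was much larger than the treatment effect in these genes. Among the first-table probes 1 of 22 had a positive mean, where 52.2% of all probes did, and 16 were negative in all 3 pairs, where 18.1% were. The median was -0.712, with pair medians of -0.534, -0.196 and -1.37. Over all probes the median was 0.0156. With limma, 8 of 22 passed an adjusted p of 0.05, all negative, where 2.85% of all probes did. They were 6 Actb probes, from -0.786 for probe 5810 (adjusted p = 0.048) to -1.16 for probe 1811 (adjusted p = 0.00471), the Actg1 probe at -0.848 ± 0.771 (SD, n = 3; adjusted p = 0.0448) and Tubb5 probe 4435 at -0.798 (adjusted p = 0.0438). The count was 1 of 22 without pair 1, 19 without pair 2, 16 with records scaled and 0 with values as deposited, where the median of all probes was 0.447. The gene-level fit with limma called none of the 8 genes (Actb adjusted p = 0.141).

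Within this component most of the spread of Tubb4b and Tubb5 lay between pairs, while that of Actb turned on probe 3146. The 3 Tubb4b probes had means of -0.477, -0.510 and -0.487, with 96.7% of their sum of squares between pairs, and the 4 Tubb5 probes ran from -0.798 to -0.649, with 96.9% between pairs. Over all 10 Actb probes 49.7% lay between pairs and 30.5% between probes. Probe 3146 had 0.101, and the other 9 ran from -1.16 to -0.658, with 89.3% between pairs, a split made after seeing the values. Tubb2a-ps2, at -0.108 ± 0.467 (SD, n = 3), and Tubb3, at -0.352 ± 0.610, were nearest to 0 apart from that probe, and both were positive in pair 2, at 0.401 and 0.132. The second table gave 4 negative means, from -0.875 to -0.749, against 43.6% of all probes with a positive one, and 3 of its 4 probes were negative in all 3 pairs (17.9% of all probes). None passed with limma (lowest adjusted p = 0.198), though all 4 had an unadjusted p under 0.05, where 16.3% of all probes did. Tubb5 there had -0.980, -0.112 and -1.38 in pairs 1, 2 and 3.

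**Figure D4:**
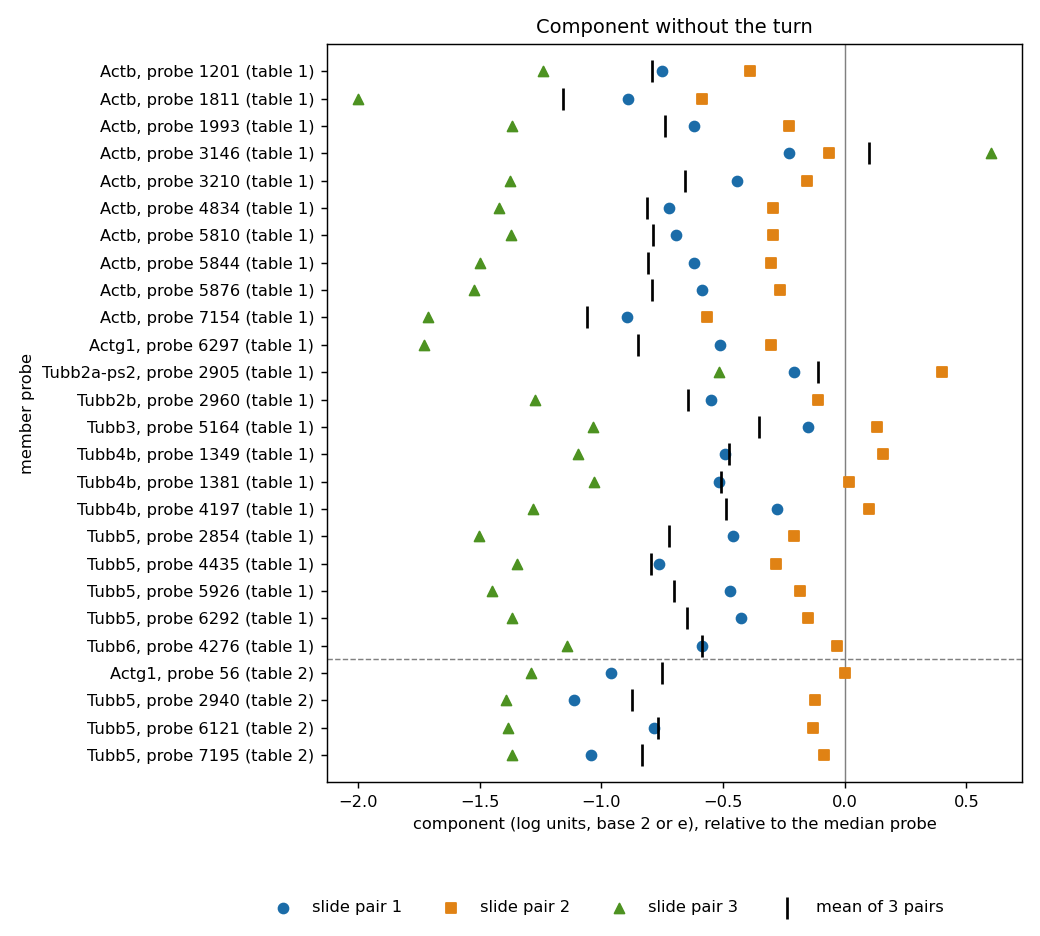
Component without the turn of each member probe in log units (horizontal axis), relative to the median probe; symbols are the 3 slide pairs and the black bar is their mean. Pair 3 is lowest for every probe of the first table except Actb probe 3146, which has 0.600 in that pair.

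Treatment effect and unturned component were related across probes, differently in each pair. Over all 7680 probes of the first table, r in pairs 1, 2 and 3 was -0.456, 0.374 and 0.154, as a description of probes that are not independent. Among the 22 members, probes of 8 genes, the unturned component was positive for 0, 5 and 1 probes in pairs 1, 2 and 3, and the treatment effect for 22, 19 and 9. Over all probes the treatment effect was positive for 58.6%, 51.2% and 40.6%, and the unturned component negative for 48.7%, 51.6% and 50.3%. Most member probes thus had opposite signs of the 2 measures in pair 1, where r was negative, and also in pair 2, where r was positive. The share of all probes with opposite signs was not counted. The part of this relation in their values was not tested.

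The genes with the most similar values over the 12 records of the first table were, for Actb, the histone gene H2az1 (r = 0.996), the initiation factor gene Eif3a (r = 0.996) and Hmgb1, a chromatin protein (r = 0.996), out of 3837. For Tubb5 they were the elongation factor genes Eef1b2 (r = 0.998) and Eef1a1 (r = 0.997), and Tubb3 (r = 0.998), which ranked 2. Tubb5 ranked 133 for Actb with r = 0.981, and Actg1 ranked 252 with r = 0.973. The median r of all genes with Actb was 0.626, and the records share dyes, slides and pairs. The closest to Tubb5 in the second table were Rpl10, Rpl4 and Rps6, genes of ribosomal proteins, each with r = 0.998, and Actg1 ranked 168 with r = 0.978.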

How the data were processed

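The values were deposited by the authors as 2 tables of 7680 probes and 12 records each, which from their range are log ratios of both channels; the log base, the numerator and any background correction or normalization by the authors are unknown here. No spot intensity or flag was used, and the number of arrays limits the precision. Each record was centred on its median (deposited medians ran from -0.305 to 1.12 and from 0.272 to 2.10), the 2 records of a slide were averaged, and 3 pair effects per probe were tested against 0 with limma 3.58.1 (lmFit, eBayes) in R 4.3.3, Benjamini-Hochberg over the table, threshold 0.05. The numbers in the titles pair the slides: deviations of same-numbered slides correlated in every pair (r of 0.473 to 0.928, and of 0.688 to 0.930 for the second table), though in pair 1 of the first table, with 0.473, hardly more than with a slide of another number (0.425). Probes were named through the platform annotation, with symbols updated by gene identifier; of probes with 1 symbol, 4712 of 4749 and 4884 of 4935 were found in the reference gene table. Single differences were tested with an exact sign-flip test over pairs. Pair effects of 7680 probes were also simulated, drawn independently, with 100 probes changed by 0.3 log units and another 100 by 1.00. Of those changed by 0.3 the fit recovered 77 with the spread of the first table and 100 with that of the second. The false calls numbered 8 with the spread of the first table and 11 with that of the second. Recovery for probes that move together within a pair, as those of Actb did, was not tested. The largest mean effect of a member probe was 0.0885, and the recovery of changes of that size was not simulated.

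All member genes are named, each list by its 2 highest and 2 lowest genes in the first table, and likeness by the 3 genes with the highest Pearson r. The members and lists were chosen with earlier results of these data known. Alternatives were other centring, scaling and normalization, no pair block, each pair left out, each record or orientation alone, and a gene-level fit. The full promoter windows were cut to the bases before the start.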

Additional observations from a re-analysis of the deposited data

How the results depend on the processing

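No alternative that kept the turn of swapped slides and both orientations called a member probe for the treatment effect in either table. With treated RNA in channel 1 alone 3 of the 22 first-table probes passed, in channel 2 alone 16, and without the turn 8; over all probes of that table the counts were 174, 668 and 219. As deposited, 33 first-table probes and 1 second-table probe passed. Leaving out a pair gave 24 to 30 first-table and 0 to 58 second-table probes. In a fit without the replicate block (no replicate block: slides with a dye term, not paired) the counts were 0 in both tables and the Actb effect stayed 0.0175.

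The Actb effect was -0.106 with values as deposited, -0.750 without the turn, -0.733 with channel 1 alone and 0.768 with channel 2 alone. For Tubb5 of the first table these were -0.0448, -0.718, -0.639 and 0.797, and for the median of the member probes -0.0839, -0.712, -0.631 and 0.776. For the member median of the second table they were -0.0621, -0.799, -0.838 and 0.782. Without a pair, Actb ran from -0.0273 to 0.0663 and Tubb5 from 0.0558 to 0.0932. Of 8 first-table genes, the sign changed for 8 as deposited, 8 without the turn, 8 with channel 1 alone, 2 (Actb and Actg1) without pair 1, 1 (Actg1) with second records alone and 1 (Tubb4b) with records scaled or under quantile normalization. Of 2 second-table genes it changed for 2 with channel 2 alone and for 1 (Actg1) without pair 1.

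The component without the turn called 0 first-table probes as deposited, 1099 with records scaled, 917 under quantile normalization, 1 gene at gene level and 49 to 771 without a pair; among members these were 0, 16, 16, 0 and 1 to 19. In the second table it called 6880, 270 and 466 probes as deposited, scaled and under quantile normalization, and 84 to 1872 without a pair, with 3 members under quantile normalization and 0 to 4 without a pair. The cause of these moves was not tested. The number of slide pairs, 3 per table, limits the precision of every effect.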
